A study of Mus musculus with 12 samples.

Results

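RNA from 12 whole mouse kidneys, each collected at postnatal day 3, was used to ask which genes responded differently to LIN28B overexpression and to loss of let-7. The measure examined was the difference between the effects of the 2 models, estimated for each gene in one fit of all 12 kidneys. LIN28OE kidneys (n = 3, strain C57BL/6) were set against WT C57BL/6 kidneys (n = 3), and let7KO kidneys (n = 3, strain Mixed, from CD1 and C57BL/6) were set against WT kidneys of the same mixed strain (n = 3). According to the study, the LIN28OE animals carry a human LIN28B transgene that doxycycline switches on in cells with a history of Wt1-Cre expression, after a short pulse late in gestation, whereas the let7KO animals lack the let-7a1, let-7d and let-7f1 genes in every cell. Each group came from 2 litters. The 2 models therefore also differed in strain, in litters, in library numbers and in how many cells carry the change, and these cannot be told apart from the gene manipulation in the comparison between them. Of 24062 gene symbols in the files, 16598 passed the filter on low counts and were tested. Library totals ran from 39926235 to 61872736 counts, so that 3 counts correspond to 0.0485 to 0.0751 CPM, the count scaled to library size.

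LIN28A and LIN28B are RNA-binding proteins that block the maturation of let-7 precursors, and let-7 microRNAs in turn repress messenger RNAs that carry a match to their seed in the 3′ untranslated region (UTR). LIN28B also binds many messenger RNAs directly. In the developing kidney, nephron progenitors of the cap mesenchyme give rise to all nephron segments, and the progenitor pool is normally used up shortly after birth in the mouse. The deletion takes away some of the let-7 genes, while overexpressed LIN28B can act on the whole family, since the other loci remain in both models.

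The mature sequences of the 3 deleted genes and of 3 family members left in place are shown for comparison. Capitals mark the seed (bases 2 to 8), and the sequences are from RefSeq (GRCm38.p6).
let-7a-5p, deleted locus at chr13:48538239-48538260, minus strand: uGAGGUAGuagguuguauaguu
let-7f-5p, deleted locus at chr13:48537889-48537910, minus strand: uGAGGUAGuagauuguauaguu
let-7d-5p, deleted locus at chr13:48536078-48536099, minus strand: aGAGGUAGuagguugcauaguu
let-7c-5p, retained, chr16:77599672-77599693, plus strand: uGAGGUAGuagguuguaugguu
let-7b-5p, retained, chr15:85707325-85707346, plus strand: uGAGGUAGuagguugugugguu
let-7g-5p, retained, chr9:106178846-106178867, plus strand: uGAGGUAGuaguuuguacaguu
The same seed was found in 9 of the 10 mature let-7 names in the table. The mature let-7f sequence is also made from a second locus, on the X chromosome, that the deletion does not touch. The study also measured a let-7a precursor from another gene, let-7a2. That gene is not among the 3 deleted ones and is not listed here.

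As a check of the labels, the precursor row Mirlet7d held 0 counts in each let7KO kidney, and 0, 19 and 35 counts in the 3 mixed-strain WT kidneys. The human transgene is not a row of the mouse annotation. The mouse Lin28b row held 232, 224 and 71 counts in LIN28OE kidneys, against 0, 18 and 33 in C57BL/6 WT kidneys, and 8 or fewer in every kidney of the let-7 experiment. By qRT-PCR the study found endogenous Lin28b mRNA unchanged in these animals. Whether reads of the human transgene were counted in the mouse row was not tested. Lin28a was almost without counts and was not tested.

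Throughout, the LIN28OE effect is the log2 fold change of LIN28OE over C57BL/6 WT, the let7KO effect is that of let7KO over mixed-strain WT, and the difference is the first minus the second. Tested with the quasi-likelihood F test of edgeR and adjusted by the method of Benjamini and Hochberg, the difference had an adjusted p below 0.05 for 1 of 16598 genes (0.00602%), Gpr137b-ps. At an unadjusted p below 0.01 there were 257 genes (1.55%), where 166 would be expected if no gene differed, and 212 of them had a mean of at least 1 CPM. The difference was above 0 for 85 of the 257 (0.512% of genes tested) and below 0 for 172 (1.04%). Over all genes the median difference was -0.02, and 48.0% of genes had a difference above 0. The counts for the gene lists below stand beside these shares of all genes. With DESeq2 in place of edgeR, 101 genes had an adjusted p below 0.05, so the number of calls depended on the test. Apart from Gpr137b-ps, no difference named here passed the adjusted threshold in edgeR. The main genes are given with their standard error (SE) and adjusted p, and the other named members of a list by the difference alone.

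In the same fit the LIN28OE effect had an adjusted p below 0.05 for 67 raised genes (0.404%) and 169 lowered genes (1.02%). The let7KO effect passed for 5 genes (0.0301%), Gatm, Gpr137b-ps, Gpx3, Nox4 and Sugct, all lowered. These counts moved with the processing. The let7KO count was 189 without let7KO kidney 1, 338 with DESeq2 and 110 with limma-voom, and the LIN28OE count of 236 ran from 63 to 426 when single kidneys were left out, the lowest without C57BL/6 WT kidney 2 and the highest without LIN28OE kidney 3. The counts alone do not show that the models differ, since a gene can pass in one and miss in the other. The 67 genes raised in LIN28OE had a median LIN28OE effect of 0.96 and a median let7KO effect of 0.37, and the let7KO effect was above 0 for 63 of them, against 49.3% of all genes. The 169 genes lowered in LIN28OE had a median LIN28OE effect of -1.13 and a median let7KO effect of -0.42, and the let7KO effect was below 0 for 146 of them, against 50.5% of all genes. Over all genes tested, the 2 effects had the same sign for 64.3%. Since the genes were chosen for their LIN28OE effect, the smaller let7KO medians are a description only. The control groups also differed from each other, with an adjusted p below 0.05 for 104 genes (0.627%), and for 52 genes with litter as a replicate block.

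**Figure D1:**
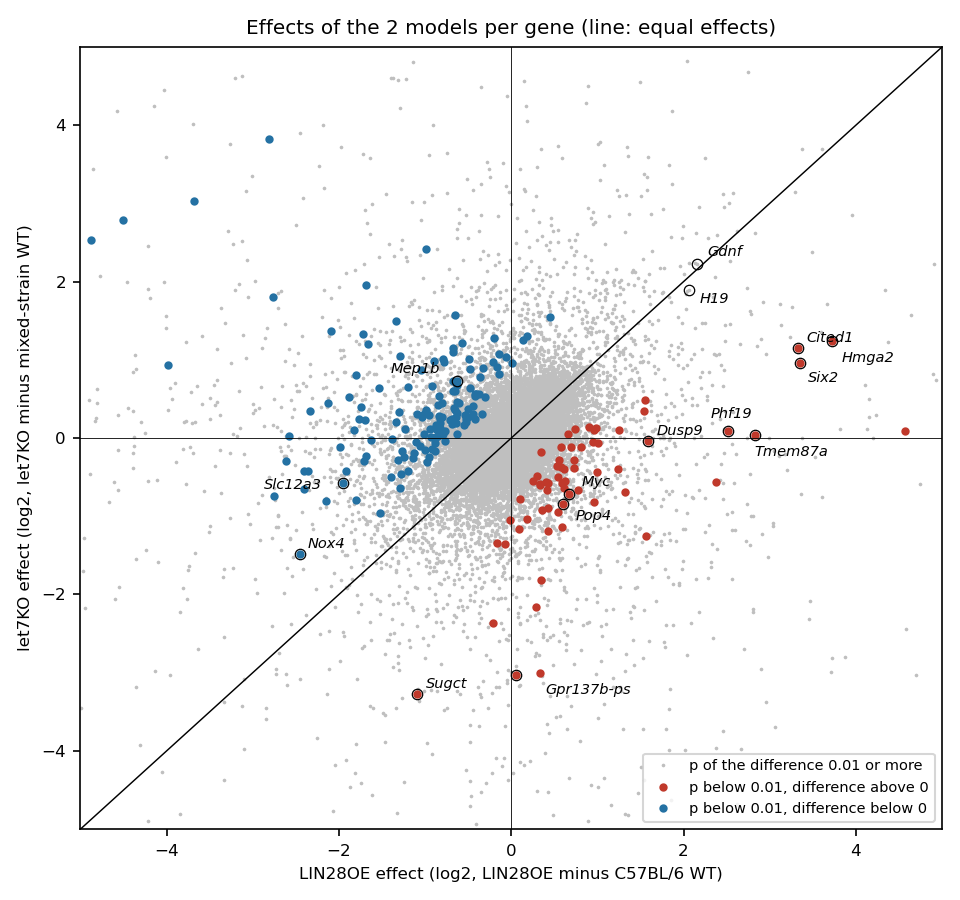
Effect of LIN28OE (x axis, log2) against effect of let7KO (y axis, log2) for each gene tested, with genes at an unadjusted p below 0.01 for the difference in red (85 above 0 in all) or blue (172 below 0 in all) and circles on the labelled genes. The axes stop at 5 in each direction and leave out 537 genes, 51 of them with a p below 0.01. Hmga2, Six2 and Cited1 lie far right of the line of equal effects, whereas Gdnf and H19 lie close to it and Gpr137b-ps lies near an LIN28OE effect of 0.

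The 257 genes were sorted by the p values of the 2 effects. A LIN28OE effect at p below 0.01 with a let7KO effect at p of 0.05 or more was found for 115 genes, 87 of them lower and 28 higher in LIN28OE than in its WT. The reverse was found for 46 genes, of which 28 were lower and 18 higher in let7KO than in its WT. Effects at p below 0.01 in both models ran in the same direction for 10 genes and in opposite directions for 4 genes, Mep1b, Myc, Pop4 and Cyp2e1. The other 82 genes fell in none of these classes.

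Gpr137b-ps, a transcribed pseudogene of an integral membrane protein gene on chromosome 13 (12615057 to 12650388, minus strand, GRCm38), was low in let7KO kidneys alone. Its level was 29.8, 24.4 and 22.5 CPM in C57BL/6 WT, 25.8, 24.8 and 29.4 CPM in LIN28OE, 41.4, 31.3 and 30.6 CPM in mixed-strain WT, and 4.90, 2.97 and 4.76 CPM in let7KO. The let7KO kidneys did not overlap any other group, and LIN28OE overlapped its WT. The LIN28OE effect was 0.06 (SE 0.237), the let7KO effect was -3.03 (SE 0.258), and the difference was 3.09 (SE 0.345, adjusted p = 0.00494). With litter as a replicate block the difference was 3.10 and its adjusted p was 0.0525, and no gene passed the adjusted threshold in that fit (899 genes had an unadjusted p below 0.05). The gene has a close copy, Gpr137b, 0.707 Mb away, and how reads shared by the pair were counted is not given in the sources used here, so the value is uncertain. Gpr137b itself had 43.1, 68.1 and 56.4 CPM in mixed-strain WT and 54.3, 49.0 and 49.6 CPM in let7KO, with a let7KO effect of -0.13. The pseudogene lies 35.9 Mb from the deleted let-7 cluster, so it is on the chromosome that was engineered, and the part of neighbouring sequence carried along with the deletion was not tested.

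**Figure D2:**
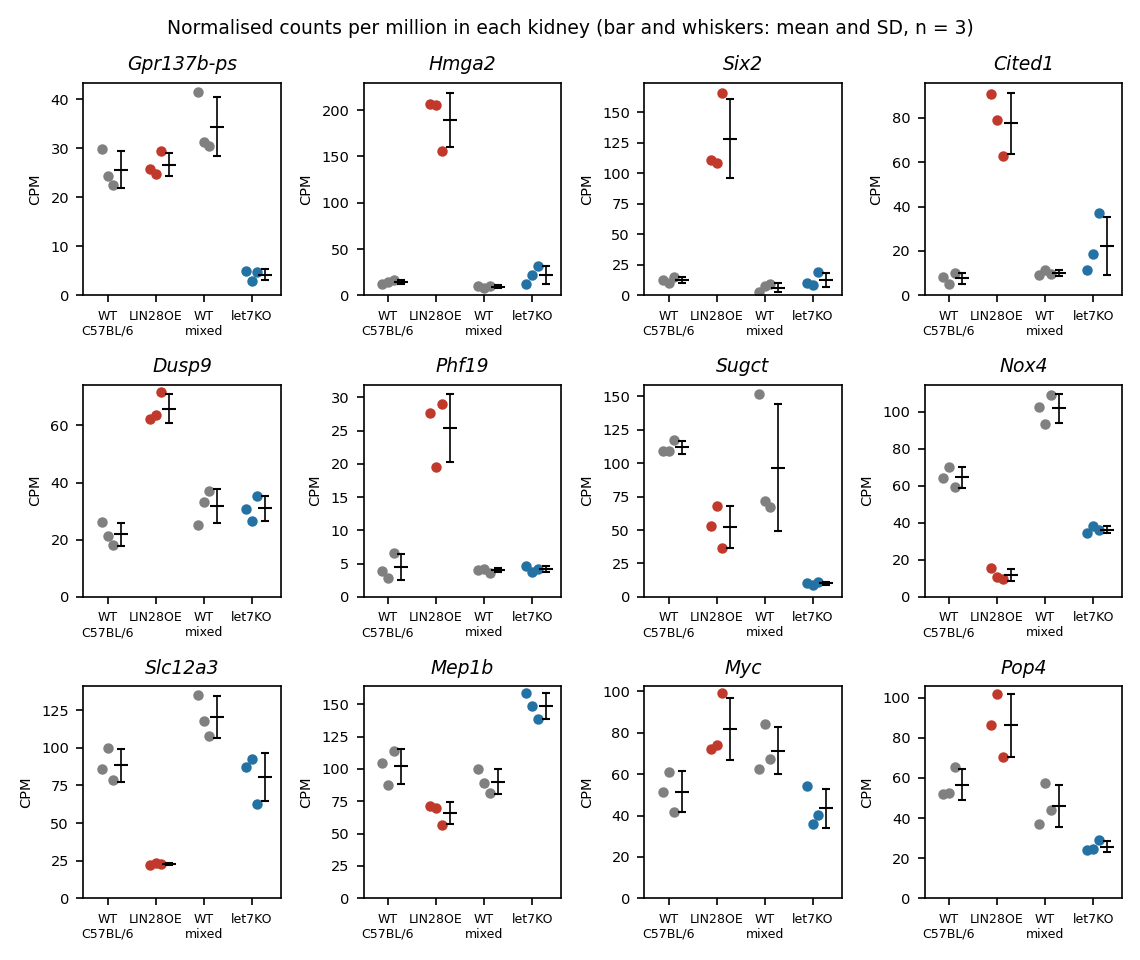
Normalised CPM (y axis, from 0) in each of the 12 kidneys for 12 genes, with points for single kidneys and a bar with whiskers for the mean and SD of each group (n = 3). Hmga2, Six2, Cited1, Dusp9 and Phf19 are by far highest in LIN28OE, Gpr137b-ps stands low in let7KO alone, and Mep1b, Myc and Pop4 move in opposite directions in the 2 models.

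Genes known as let-7 targets or as oncofetal genes had larger LIN28OE effects for most members. Of 21 members tested, 16 had a difference above 0, against 48.0% of all genes. An unadjusted p below 0.01 was reached by 3 (14.3%, against 1.55% of all genes), Hmga2, Arid3b and Igf2bp2. The median LIN28OE effect was 0.79, the median let7KO effect 0.35 and the median difference 0.48. The summed level of the list was between 986 and 1030 CPM in C57BL/6 WT, between 1822 and 1866 CPM in LIN28OE, between 843 and 972 CPM in mixed-strain WT, and between 1156 and 1206 CPM in let7KO. Mutant and WT kidneys did not overlap in either model. After adjustment 8 members rose in LIN28OE, where 0.404% of all genes did. No gene of any kind rose in let7KO after adjustment, so that the count for the list is no result about its members.

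Hmga2, an architectural chromatin protein of fetal tissues and a textbook let-7 target, had the largest difference in that list relative to its error. It measured 12.4, 14.5 and 16.4 CPM in C57BL/6 WT and 207, 205.9 and 156 CPM in LIN28OE. In the other model it measured 9.68, 7.72 and 10.5 CPM in WT and 12.3, 21.8 and 31.6 CPM in let7KO. Both mutant groups lay above their own WT, and every LIN28OE kidney lay far above every let7KO kidney. The LIN28OE effect was 3.72 (SE 0.300, adjusted p = 3.26e-05), the let7KO effect 1.24 (SE 0.276, adjusted p = 0.132), and the difference 2.48 (SE 0.389, adjusted p = 0.0856). Over the 21 alternatives the difference stayed between 2.20 and 2.86, with an adjusted p below 0.05 in 8 of them.

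The windows below are the let-7 seed matches in the longest annotated 3′ UTR of the 3 members named above, shown because the number of matches differs among them. Capitals mark CTACCTC, the bases that pair with the seed, read in the sense of the transcript from GENCODE M21 (GRCm38).
Hmga2, the first of 4, chr10:120364217-120364239, minus strand: ttcaatttCTACCTCagcatcag
Hmga2, the second, chr10:120362980-120363002, minus strand: cctcaataCTACCTCtgaatgct
Hmga2, the third, chr10:120362542-120362564, minus strand: gcaaggaaCTACCTCcacacttc
Hmga2, the fourth, chr10:120361684-120361706, minus strand: acacactaCTACCTCttaagtcc
Arid3b, the only match, chr9:57790356-57790376, minus strand: ataaagctCTACCTCttcaca
Igf2bp2, the only match, chr16:22059466-22059488, minus strand: aataaaagCTACCTCaggtgttt
A match is a description of the sequence and not of binding. Across all genes tested with an annotated 3′ UTR, 1770 carried CTACCTC and 13653 did not, and the median difference was 0.06 with the sequence and -0.03 without it. With the sequence the median LIN28OE effect was -0.0046 and the median let7KO effect -0.06, and without it they were -0.03 and -0.01. An unadjusted p below 0.01 was reached by 1.64% of genes with the sequence and 1.60% of those without it.

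Arid3b, a DNA-binding protein of the ARID family, was high in LIN28OE alone. It had 3.21, 1.17 and 3.54 CPM in C57BL/6 WT and 11.2, 17.5 and 12.7 CPM in LIN28OE, and 5.32, 3.07 and 5.82 CPM in mixed-strain WT against 1.59, 3.73 and 4.32 CPM in let7KO. Its difference was 2.94 (SE 0.712, adjusted p = 0.363). Igf2bp2, an RNA-binding protein that binds Igf2 mRNA, had 59.3, 58.1 and 54.2 CPM in C57BL/6 WT and 154, 115 and 230.0 CPM in LIN28OE. In the let-7 experiment its levels overlapped, at 47.5, 50.04 and 78.2 CPM in WT and 88.0, 72.6 and 63.0 CPM in let7KO. The difference for Igf2bp2 was 1.19 (SE 0.347, adjusted p = 0.537). Its relative Igf2bp1 had a difference of 1.49 (SE 0.531, adjusted p = 0.676), which misses the unadjusted threshold.

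For other genes raised in LIN28OE the difference was small beside its error. Igf2, the fetal growth factor, measured 104, 103 and 110 CPM in C57BL/6 WT and 326, 320.4 and 283 CPM in LIN28OE, and 89.2, 150, and 86.6 CPM in mixed-strain WT against 169, 275 and 334 CPM in let7KO. The LIN28OE effect was 1.56 and the let7KO effect 1.26, a difference of 0.30 (SE 0.336, adjusted p = 0.983). H19, the noncoding RNA of the same imprinted locus, had effects of 2.07 and 1.89 and a difference of 0.18 (SE 0.496, adjusted p = 1). Gdnf, the ligand by which progenitors signal to the ureteric bud, had effects of 2.16 and 2.22 and a difference of -0.06 (95% interval -1.28 to 1.15). These intervals are wide, so equal effects were not shown. The sign of the Igf2, H19 and Gdnf differences turned when single kidneys were left out.

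Nephron progenitor genes had larger LIN28OE effects for the transcription regulators Six2 and Cited1. Of 15 genes tested, 11 had a difference above 0, against 48.0% of all genes. An unadjusted p below 0.01 was reached by 4 above 0 (Six2, Cited1, Robo2 and Crym) and 1 below 0 (Tmem100). These made up 33.3% of the list, against 1.55% of all genes. The median LIN28OE effect was 1.21, the median let7KO effect 0.64 and the median difference 0.38. The summed list level ran from 396 to 421 CPM in C57BL/6 WT and from 716 to 920 CPM in LIN28OE, without overlap. It ran from 256 to 349 CPM in mixed-strain WT and from 310.0 to 368 CPM in let7KO, with overlap. In whole kidneys, more progenitor cells and more RNA per progenitor cell cannot be told apart. In LIN28OE 4 members rose after adjustment, beside 0.404% of all genes.

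Six2, which keeps cap mesenchyme cells undifferentiated, measured 12.8, 10.2 and 14.9 CPM in C57BL/6 WT and 111, 108 and 166 CPM in LIN28OE. It measured 2.59, 7.37 and 9.18 CPM in mixed-strain WT and 9.97, 8.22 and 19.1 CPM in let7KO, where the groups overlapped. The LIN28OE effect was 3.35 (SE 0.428, adjusted p = 0.00159), the let7KO effect 0.96 (SE 0.3998, adjusted p = 0.305), and the difference 2.39 (SE 0.565, adjusted p = 0.351). Cited1, a transcriptional cofactor of the least committed progenitors, measured 8.26, 5.003 and 9.86 CPM in C57BL/6 WT and 90.6, 79.0 and 63.0 CPM in LIN28OE. In the let-7 experiment it measured 9.07, 11.5 and 9.71 CPM in WT and 11.5, 18.6 and 36.9 CPM in let7KO, with a difference of 2.18 (SE 0.508, adjusted p = 0.351). All 3 LIN28OE kidneys lay far above their WT, and the lowest let7KO kidney lay next to the highest mixed-strain WT kidney.

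Crym also had the larger effect in LIN28OE, with effects of 1.55 and 0.48 and a difference of 1.07 (SE 0.336, adjusted p = 0.57). Some other progenitor genes behaved unlike Six2 and Cited1. Eya1, a phosphatase that acts with Six2, had effects of 2.03 and 1.66 and a difference of 0.38 (SE 0.747, adjusted p = 1), and its level differed between the 2 WT groups, with 6.73, 10.2 and 12.9 CPM in C57BL/6 and 0.409, 0.863 and 2.75 CPM in mixed-strain kidneys. Robo2, a receptor that helps to limit the site of ureteric budding, had 27.9, 26.3 and 16.7 CPM in C57BL/6 WT and 41.3, 38.9 and 58.1 CPM in LIN28OE, against 23.2, 32.2 and 32.1 CPM in mixed-strain WT and 21.3, 9.98 and 18.2 CPM in let7KO. Its effects ran in opposite directions, and the difference was 1.79 (SE 0.419, adjusted p = 0.351). Tmem100, a membrane protein also made by endothelial cells, went the other way with effects of -0.67 and 1.15 and a difference of -1.83 (SE 0.408, adjusted p = 0.314). Its level also differed between the WT groups, with 33.8, 36.6 and 44.3 CPM in C57BL/6 and 7.82, 10.6 and 18.35 CPM in mixed-strain kidneys. The mutant means lay between the WT means, at 24.0 CPM in LIN28OE and 27.3 CPM in let7KO. The progenitor transcription factor gene Wt1, whose Cre line drives the transgene, had effects of -0.32 and 0.10.

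Differentiated tubule genes had the more negative effect in LIN28OE for most members. Of 23 proximal tubule genes tested, 21 had a difference below 0. An unadjusted p below 0.01 was reached by 7 (30.4%, against 1.55% of all genes), all below 0. They were Mep1b, Miox, Slc34a1, Slc6a19, Aqp1, Slc27a2 and Gatm. The median LIN28OE effect was -1.14, the median let7KO effect -0.32 and the median difference -0.62, which stayed between -0.72 and -0.55 over 21 alternatives. After adjustment 12 members fell in LIN28OE, where 1.02% of all genes did, and 1, Gatm, fell in let7KO, where 0.0301% did. The summed level of the list was between 6311 and 6964 CPM in C57BL/6 WT and between 2940 and 3546 CPM in LIN28OE. It was between 8845 and 10180 CPM in mixed-strain WT and between 6386 and 8275 CPM in let7KO, so the mutants lay below their WT in both models.

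Slc34a1, the phosphate transporter of the proximal brush border, was tightly spaced in the LIN28B experiment, with 1149, 1167 and 1169 CPM in WT and 514, 521 and 485 CPM in LIN28OE. In the let-7 experiment it was 1828, 1548 and 1709 CPM in WT and 1059, 1288 and 1454 CPM in let7KO. The effects were -1.20 and -0.42 and the difference was -0.78 (SE 0.187, adjusted p = 0.362). The gene lies within 10 Mb of the deleted let-7 cluster. Miox, an enzyme of inositol breakdown, had 601, 538 and 683 CPM in C57BL/6 WT and 221, 218 and 151 CPM in LIN28OE. In let7KO it ranged from 466 to 1246 CPM, around the 829 to 1005 CPM of its WT, and the difference was -1.60 (SE 0.378, adjusted p = 0.351). Gatm, which makes the creatine precursor guanidinoacetate, fell in both models, with effects of -1.52 and -0.96 and a difference of -0.56 (SE 0.173, adjusted p = 0.558). The neutral amino acid transporter Slc6a19 had the largest difference of the list, -1.76 (SE 0.474, adjusted p = 0.435), and the glucose transporter Slc5a2 came next at -1.72 (SE 0.656, adjusted p = 0.697).

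The more distal segments had most differences on the same side. Of 13 genes of the loop of Henle and distal convoluted tubule, 11 had a difference below 0 and 2 reached an unadjusted p below 0.01, with a median difference of -0.67. Slc12a3, the thiazide-sensitive sodium chloride cotransporter, measured 86.2, 99.98 and 78.8 CPM in C57BL/6 WT and 22.5, 23.4 and 22.6 CPM in LIN28OE. It measured 135, 118 and 108 CPM in mixed-strain WT and 87.3, 92.5 and 62.4 CPM in let7KO. Mutants and WT did not overlap in either model. The effects were -1.95 and -0.58 and the difference was -1.38 (SE 0.243, adjusted p = 0.178). The claudin Cldn10 had a difference of -0.96 (SE 0.246, adjusted p = 0.404), and the prostaglandin receptor Ptger3 one of -1.04 (SE 0.403, adjusted p = 0.712). All 11 intercalated cell genes had a difference below 0 (median -0.42), led by the aquaporin Aqp6 at -1.29 and the proton pump subunit Atp6v1b1 at -0.80, and none reached an unadjusted p below 0.01. Of 10 principal cell genes 9 had a difference below 0, with the water channels Aqp2 at -0.69 and Aqp4 at -0.64. Podocyte genes did not share this direction, with 9 of 12 above 0 and a median of 0.14, which was -0.02 without mixed-strain WT kidney 3. In that list Clic5, a chloride channel protein, had -0.47 and the phospholipase Plce1 0.47.

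**Figure D3:**
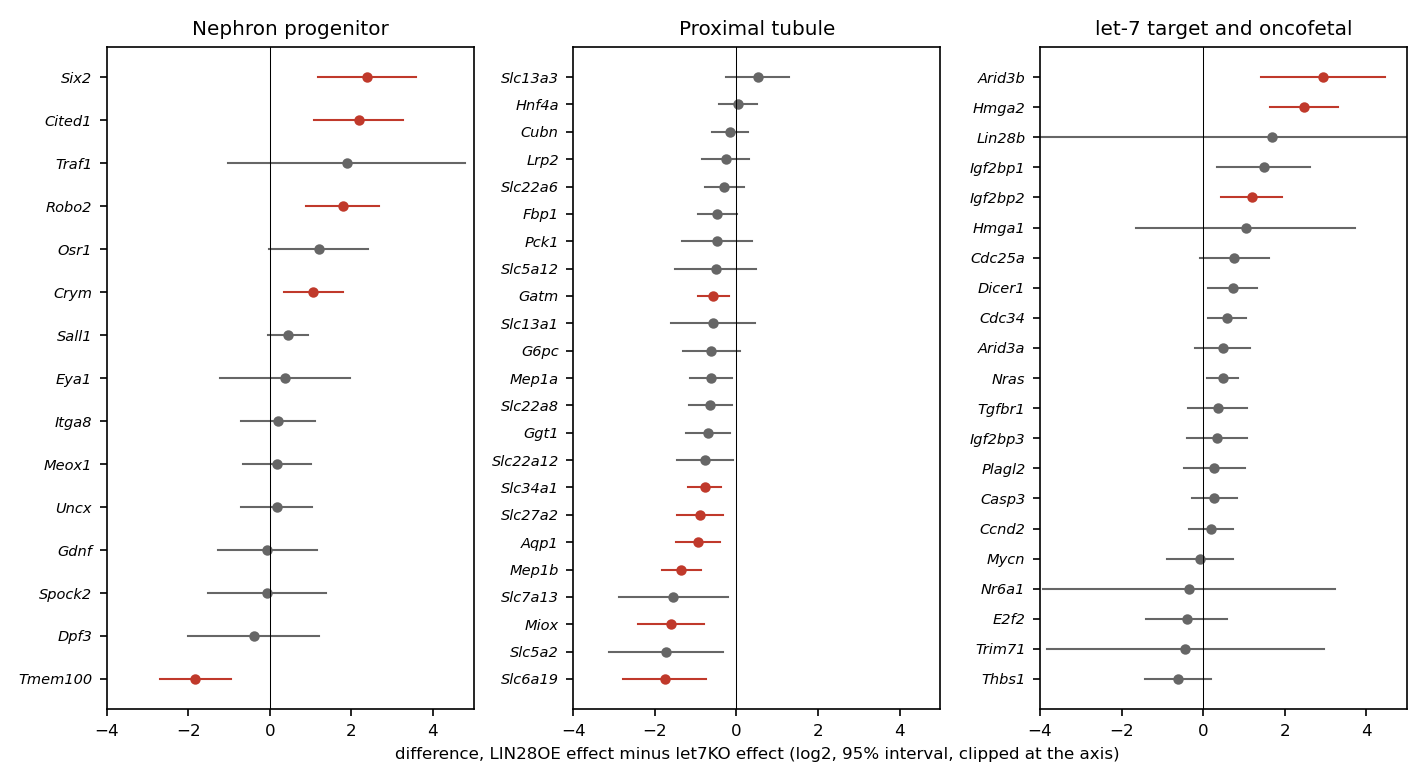
Difference between the LIN28OE and let7KO effects (x axis, log2, with the 95% interval from the fit, clipped at the axis ends) for each tested gene of 3 lists, red where the unadjusted p was below 0.01. Most nephron progenitor and let-7 target genes lie above 0 and 21 of 23 proximal tubule genes lie below it.

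Fatty acid oxidation, renin-angiotensin and endothelial lists had most differences below 0, whereas glycolysis genes did not. Of 18 genes of fatty acid oxidation and the peroxisome, 17 had a difference below 0 (median -0.43), and Ehhadh, a peroxisomal enzyme, reached -1.36 (SE 0.384, adjusted p = 0.526), while the fatty acid hydroxylase Cyp4a14 had -1.505 (SE 0.526, adjusted p = 0.671). All 6 renin-angiotensin genes had a difference below 0, with Ace, which makes angiotensin II, at -0.78 and its precursor gene Agt at -0.84. All 13 endothelial genes had a difference below 0, with a median of -0.54, a median LIN28OE effect of -0.47 and a median let7KO effect of 0.10, and none reached an unadjusted p below 0.01. Esam, a junction protein of endothelium, was the largest at -0.69 (SE 0.255, adjusted p = 0.692), and the angiopoietin receptor Tek followed at -0.68. Genes of 1 cell type move together within a kidney, so such counts are not independent observations.

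Collagen and laminin genes had a median LIN28OE effect of -0.33 and a median let7KO effect of 0.05, with 41 of 54 differences below 0. An unadjusted p below 0.01 was reached by Col16a1, Lama2 and Col23a1, all below 0. These made up 5.56% of the list, against 1.55% of all genes. Col16a1, a fibril-associated collagen, had effects of -0.22 and 0.97 and a difference of -1.19 (SE 0.263, adjusted p = 0.314), so its let7KO effect was the larger one. Its level also differed between the WT groups, with means of 94.0 CPM in C57BL/6 and 53.0 CPM in mixed-strain kidneys. That is a log2 difference between the controls of -0.83 (SE 0.187). The mutant means were 80.9 CPM in LIN28OE and 103.8 CPM in let7KO. Among members of at least 1 CPM the largest values came with large errors, with Col6a4 at -2.23 (SE 1.12, adjusted p = 0.821) and Col24a1 at -1.59 (SE 1.67, adjusted p = 0.98). The 15 stroma and smooth muscle genes had a median difference of -0.47, led by the growth factor receptor Pdgfrb at -0.80 (SE 0.317, adjusted p = 0.722), with the proteoglycan Dcn at -0.66.

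Genes of cell division leaned the opposite way. Of 22 cell cycle genes, 21 had a difference above 0, with a median LIN28OE effect of 0.32, a median let7KO effect of -0.05 and a median difference of 0.37. None reached an unadjusted p below 0.01, and the largest were the replication helicase subunit Mcm2 at 0.72 (SE 0.374, adjusted p = 0.834) and the mitotic kinase Plk1 at 0.65 (SE 0.283, adjusted p = 0.763). The summed level ran from 2823 to 2872 CPM in C57BL/6 WT and from 3507 to 4051 CPM in LIN28OE, without overlap, and from 2088 to 2489 CPM in mixed-strain WT and from 2198 to 2345 CPM in let7KO, with overlap. Genes of microRNA processing had a median difference of 0.45 over 13 genes. In that list Dicer1, the enzyme that cuts let-7 and other precursors, had effects of 0.98 and 0.25, and Xpo5, which exports the precursors from the nucleus, had -0.02 and -0.91.

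**Figure D4:**
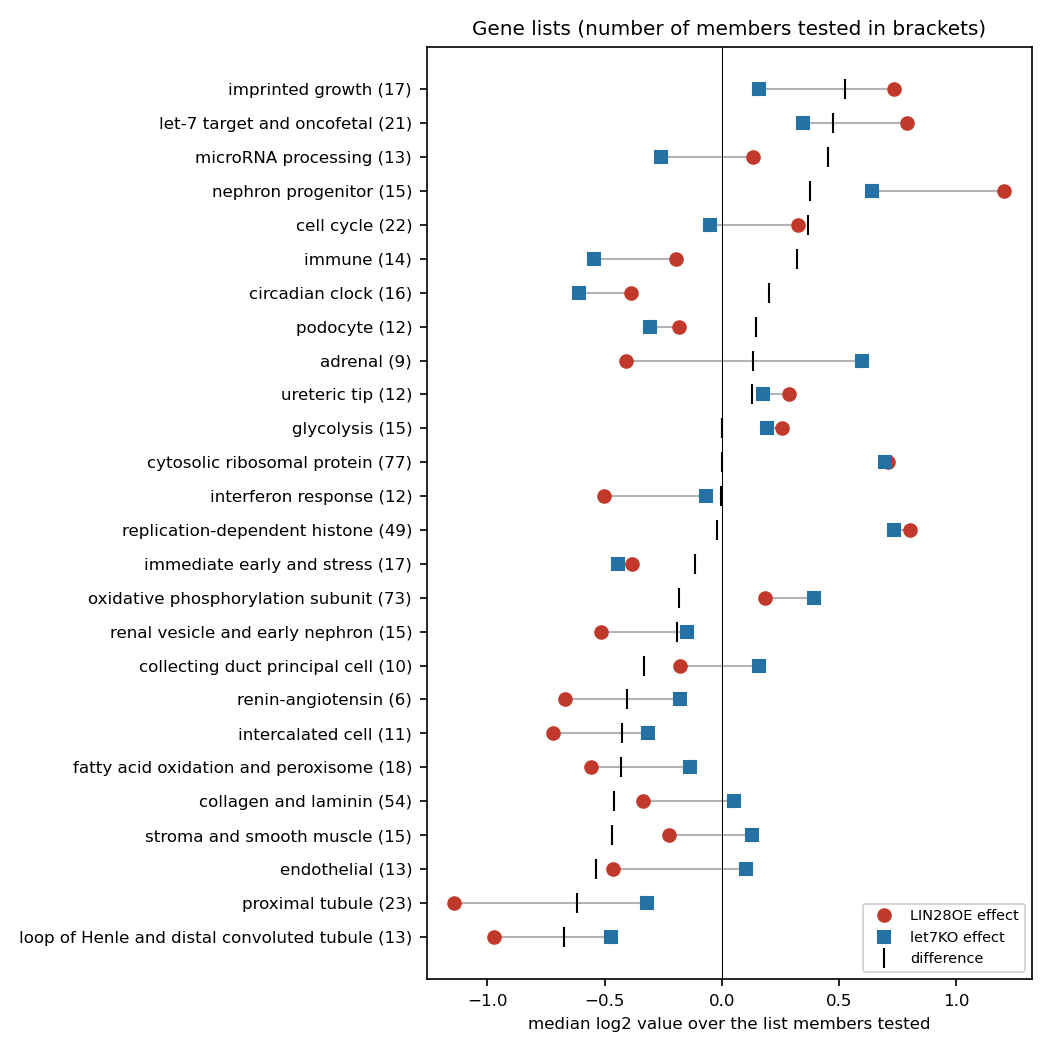
Median log2 value over the tested members of 26 gene lists, with circles for the LIN28OE effect, squares for the let7KO effect and vertical ticks for the median difference, sorted by that difference. Tubule, endothelial and matrix lists lie at the bottom, imprinted, let-7 target, progenitor and cell cycle lists at the top, and for ribosomal protein and histone genes the medians of both effects nearly coincide.

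Opposite effects at an unadjusted p below 0.01 in each model were found for 4 genes. Myc, a transcription factor that drives growth, measured 51.6, 61.3 and 41.8 CPM in C57BL/6 WT and 71.9, 74.2 and 99.3 CPM in LIN28OE, and 62.6, 84.0 and 67.5 CPM in mixed-strain WT against 54.0, 36.1 and 40.3 CPM in let7KO. LIN28OE lay above its WT and let7KO below its WT, without overlap. The effects were 0.67 (SE 0.211) and -0.72 (SE 0.211), and the difference was 1.38 (SE 0.298, adjusted p = 0.314). Mep1b, a brush border protease subunit on chromosome 18, went the other way, with 104, 87.5 and 114 CPM in C57BL/6 WT, 71.7, 70.1 and 56.5 CPM in LIN28OE, 100.2, 89.2 and 81.2 CPM in mixed-strain WT and 159, 149 and 139 CPM in let7KO. Its difference was -1.35 (SE 0.220, adjusted p = 0.0977). Pop4, a subunit of the RNases P and MRP that process tRNA and rRNA precursors, had effects of 0.61 and -0.84 and a difference of 1.45 (SE 0.286, adjusted p = 0.265). Cyp2e1, a cytochrome P450 enzyme, was low in all kidneys, with a group mean of at most 8.26 CPM and a difference of -3.65 (SE 0.810, adjusted p = 0.314). That highest mean was in C57BL/6 WT, whereas mixed-strain WT had 1.30 CPM, a log2 difference between the controls of -2.66 (SE 0.591). The mutant means lay between them, at 2.56 CPM in LIN28OE and 5.08 CPM in let7KO.

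Most other genes of ribosome assembly also had a difference above 0. This list of 50 genes was drawn up after such genes had been seen among the largest differences, so its counts only describe it. A difference above 0 was found for 43, and 8 (16.0%, against 1.55% of all genes) reached an unadjusted p below 0.01, all above 0. The median LIN28OE effect was 0.52, the median let7KO effect 0.14 and the median difference 0.38. Rrp1b, a nucleolar protein, had 31.8, 30.6 and 35.4 CPM in C57BL/6 WT and 59.0, 72.5 and 64.5 CPM in LIN28OE, while mixed-strain WT at 22.3, 24.4 and 34.6 CPM overlapped let7KO at 27.6, 24.5 and 25.4 CPM. Its difference was 1.07 (SE 0.279, adjusted p = 0.418). Pwp2, a component of the machinery for the small ribosomal subunit, had effects of 0.54 and -0.95 and a difference of 1.49 (SE 0.356, adjusted p = 0.351). Mybbp1a, another nucleolar protein, had effects of 0.55 and -0.29 and a difference of 0.84 (SE 0.221, adjusted p = 0.418). Heatr1, which acts early in rRNA processing, had effects of 0.93 and -0.53 and a difference of 1.46 (SE 0.582, adjusted p = 0.721). The let7KO effect was thus below 0 for each of these named genes, whereas the list median was 0.14.

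**Figure D5:**
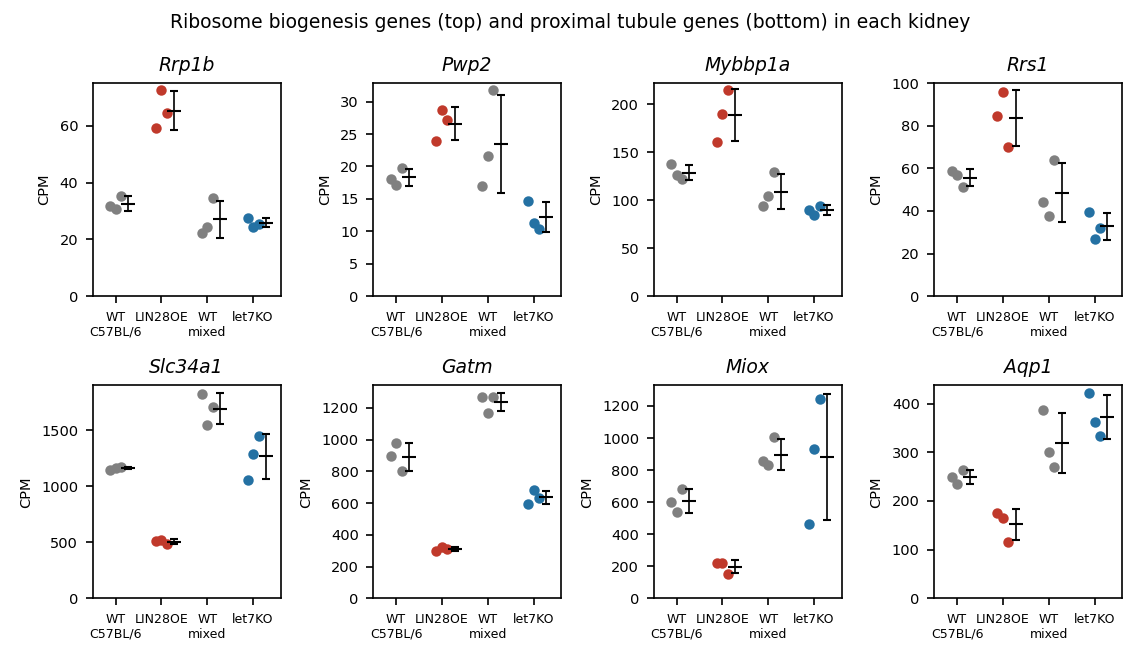
Normalised CPM (y axis, from 0) in each of the 12 kidneys for 4 ribosome assembly genes and 4 proximal tubule genes, with the mean and SD of each group (n = 3). LIN28OE lies above its WT for the upper genes and below it for the lower ones, and let7KO overlaps its WT for Rrp1b, Mybbp1a, Rrs1, Miox and Aqp1.

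The structural proteins of the ribosome did not follow that pattern. The 77 cytosolic ribosomal protein genes had a median LIN28OE effect of 0.71 and a median let7KO effect of 0.70, with a median difference of 0.00 and no member at an unadjusted p below 0.01 (Rps14 had 0.29 and Rpl37a -0.29). The 49 replication-dependent histone genes had medians of 0.80 and 0.73, with Hist1h4i at a difference of 1.45 and Hist1h2bj at 1.02. For both lists the summed level varied widely among replicates, for ribosomal protein genes from 28020 to 50930 CPM in LIN28OE and from 31140 to 56530 CPM in let7KO. The kidneys also differed in how CPM related to transcript length, with a rank correlation between -0.239 and 0.263. It was 0.263, 0.173 and -0.0214 in C57BL/6 WT and -0.0881, -0.0684 and 0.19 in LIN28OE. In the let-7 experiment it was 0.0664, -0.119 and 0.231 in WT and 0.0237, -0.205 and -0.239 in let7KO. Mutant and WT kidneys overlapped in both models. The part of this in the levels of such short transcripts was not tested. Oxidative phosphorylation subunits had medians of 0.18 and 0.39, with 70 of 73 differences below 0, among them Atp5o at -0.48 and Ndufv3 at -0.45. No member reached an unadjusted p below 0.01. The median difference of -0.18 did not keep its sign, and ran from -0.33 to 0.03 over 21 alternatives.

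Some genes stood high in LIN28OE while let7KO overlapped its WT. Dusp9, a phosphatase that inactivates MAP kinases, had 26.1, 21.3 and 18.2 CPM in C57BL/6 WT and 62.3, 63.6 and 71.6 CPM in LIN28OE, against 25.3, 33.1 and 37.2 CPM in mixed-strain WT and 30.9, 26.5 and 35.4 CPM in let7KO. The effects were 1.59 and -0.04, and the difference was 1.63 (SE 0.296, adjusted p = 0.193). Phf19, a protein that links Polycomb repressive complex 2 to chromatin, had 3.89, 2.80 and 6.65 CPM in C57BL/6 WT and 27.6, 19.5 and 29.1 CPM in LIN28OE, and between 3.63 and 4.70 CPM in all 6 kidneys of the let-7 experiment. Its difference was 2.42 (SE 0.483, adjusted p = 0.265). Both genes rose in LIN28OE after adjustment.

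Among the genes of smallest p with a difference below 0, Slc10a1, a bile acid cotransporter, had 7.10, 9.71 and 7.27 CPM in C57BL/6 WT and 2.17, 2.17 and 1.19 CPM in LIN28OE, against 5.52, 5.70 and 6.71 CPM in mixed-strain WT and 9.41, 7.64 and 7.30 CPM in let7KO. LIN28OE lay below its WT and let7KO above its WT, without overlap. The effects were -2.12 (SE 0.383, adjusted p = 0.0152) and 0.44 (SE 0.367, adjusted p = 0.616), so the let7KO effect did not pass the test. The difference for Slc10a1 was -2.56 (SE 0.528, adjusted p = 0.293). Tmem27, the collectrin needed for amino acid uptake, had 484, 481 and 512 CPM in C57BL/6 WT and 258, 279 and 196 CPM in LIN28OE, with overlapping groups in the let-7 experiment and a difference of -1.06 (SE 0.220, adjusted p = 0.293). Slc22a19, an organic anion transporter, had a difference of -1.13 (SE 0.235, adjusted p = 0.293). The glucuronosyltransferase Ugt1a2 had effects of -2.15 and -0.81, of which the first passed the test.

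Apart from Gpr137b-ps, the genes lowered in let7KO after adjustment also had LIN28OE effects below 0, of varying size. Gatm was described with the proximal tubule genes. Sugct, a mitochondrial CoA transferase on chromosome 13, had 109, 110 and 118 CPM in C57BL/6 WT and 53.3, 67.9 and 36.5 CPM in LIN28OE, against 152, 71.6 and 66.9 CPM in mixed-strain WT and 10.5, 8.74 and 10.8 CPM in let7KO. The effects were -1.09 (SE 0.287) and -3.28 (SE 0.311), and the difference was 2.18 (SE 0.408, adjusted p = 0.224). Nox4, an NADPH oxidase abundant in the kidney, fell in both models but by more in LIN28OE, with effects of -2.46 and -1.49 and a difference of -0.97 (SE 0.264, adjusted p = 0.456). Gpx3, the plasma glutathione peroxidase made by the tubule, fell in both models, with effects of -1.26 and -1.15 and a difference of -0.11 (95% interval -0.54 to 0.32). Other genes with the larger let7KO effect did not pass in let7KO after adjustment. Dusp4, another MAP kinase phosphatase, had effects of 0.29 and -2.16 and a difference of 2.45 (SE 0.546, adjusted p = 0.314). Pzp, a circulating protease inhibitor of the alpha-2-macroglobulin family, had 5.82, 6.47 and 5.43 CPM in the 3 let7KO kidneys and 0.925 CPM or less in all 9 others. Mixed-strain WT kidneys were at or near 0 for Pzp, with 0.136, 0 and 0.034 CPM. Cfi, a complement protease, had 39.3, 28.5 and 28.99 CPM in mixed-strain WT and 57.7, 81.3 and 56.4 CPM in let7KO, while LIN28OE lay below its WT, with effects of -0.49 and 1.01 (SE of the difference 0.302, adjusted p = 0.265).

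Sugct lies 30.8 Mb and the zinc finger gene Zfp429, with a difference of 3.34 (SE 0.796, adjusted p = 0.351), 18.8 Mb from the deleted cluster. Of 143 genes tested within 10 Mb of the cluster, 4 (2.80%) had an unadjusted p below 0.01, all below 0, and the median difference was 0.02. On the rest of chromosome 13 it was 12 of 481 genes (2.49%), 6 in each direction. Both shares are above the 1.55% of all genes, and that gap was not tested.

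For 2 of the largest differences the WT groups themselves were far apart. Tmem87a, a Golgi membrane protein gene on chromosome 2, had 2.52, 3.63 and 2.99 CPM in C57BL/6 WT, 18.4, 20.3 and 26.01 CPM in LIN28OE, and between 29.6 and 63.0 CPM in all 6 kidneys of the let-7 experiment. The difference was 2.79 (SE 0.423, adjusted p = 0.0856), and mixed-strain WT exceeded C57BL/6 WT by 3.89 (adjusted p = 2.55e-05). Tmem87a lies 15.2 Mb from Wt1, the gene whose Cre line drives LIN28B, and the part of sequence around that locus was not tested. Nkx6-2, a homeobox gene on chromosome 7, had at most 0.4205 CPM in C57BL/6 WT, 5.36, 6.69 and 7.84 CPM in LIN28OE, and between 15.1 and 23.1 CPM in the let-7 experiment. Its difference was 4.48 (SE 0.857, adjusted p = 0.246). For both genes LIN28OE lay between C57BL/6 WT and the let-7 experiment and overlapped neither, and the part of strain and of the transgene cannot be told apart.

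Markers of cells from around the kidney also moved with the comparison. Of 9 adipose and skeletal muscle genes tested, 7 had a difference below 0 and 3 (Cfd, Ucp1 and Fabp4) an unadjusted p below 0.01, with a median of -4.10, which was -0.59 without let7KO kidney 2 and -0.93 with the filter that asks for 1 CPM in every kidney. Cfd, the adipocyte factor adipsin, had 23.0, 30.7 and 3.73 CPM in C57BL/6 WT and 8.43, 0 and 2.26 CPM in LIN28OE, but 0, 0.0184 and 0 CPM in mixed-strain WT and 0, 4.997 and 0 CPM in let7KO, so 1 let7KO kidney set the let7KO effect. Ucp1, the brown fat uncoupling protein, had the same pattern, with 2.37 CPM in that let7KO kidney and 0 in the other two. The summed level of the list was 429 to 568 CPM in C57BL/6 WT, 243 to 420.1 CPM in LIN28OE, 258 to 420.2 CPM in mixed-strain WT and 419 to 649 CPM in let7KO. The 8 urothelial genes, also listed after their values were seen, all had a difference below 0, with 5 at an unadjusted p below 0.01 (Snx31, Upk1a, Upk1b, Upk2 and Upk3a), with Upk2 at -2.87 and Snx31 at -2.61. Their summed level was 140 to 270.3 CPM in C57BL/6 WT, 33.6 to 107 CPM in LIN28OE, 74.0 to 130 CPM in mixed-strain WT and 96.3 to 176 CPM in let7KO. The part of dissection in these values was not tested. Car3, a carbonic anhydrase of fat and muscle, had 126, 153 and 21.6 CPM in C57BL/6 WT and 11.0, 2.24 and 10.02 CPM in LIN28OE, against 1.21, 0.0184 and 1.44 CPM in mixed-strain WT and 1.67, 17.6 and 2.76 CPM in let7KO. Its effects were -3.69 and 3.04, and let7KO kidney 2, which also carried the let7KO effect of Cfd, stood highest in its group.

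The remaining lists held few genes at an unadjusted p below 0.01. The 12 ureteric tip genes had a median difference of 0.13, with Slco4c1 at 1.65. The 15 renal vesicle genes had a median of -0.19, with the growth factor Bmp2 at -1.02 and Lfng, which modifies Notch receptors, at -0.85. The 17 imprinted growth genes had a median of 0.53, with the noncoding RNA Rian at 2.46 (SE 1.34) and the zinc finger gene Peg3 at 1.15 (SE 0.493). Among 17 immediate early genes (median -0.11) Atf3 had 1.63 (SE 0.952), and Myc alone had an unadjusted p below 0.01.

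The 16 clock genes had median effects of -0.39 in LIN28OE and -0.61 in let7KO. The period gene Per2 had effects of -1.37 and -2.93 and a difference of 1.56 (SE 0.773, adjusted p = 0.819), and Ciart had a difference of 1.58 (SE 0.891). Immune genes had a median of 0.32 over 14 genes, with Cd74 at 1.19 and Lyz2 at 0.97. In mixed-strain WT kidney 2 Cd74 stood at 261 CPM, against 72.9 CPM or less in all other kidneys. The 9 adrenal genes had a median of 0.13 with Star at 0.82, and the 4 erythroid genes 0.19. The 15 glycolysis genes had a median of 0.00, with Hk2 at 0.31 and Slc2a1 at 0.28, and the 12 interferon genes one of 0.00, with Ifit3 at -1.19 and Ifit1 at 0.90. Lef1, a Wnt effector of the committing progenitor, had effects of -0.41 and 0.08 and a difference of -0.49 (SE 0.251, adjusted p = 0.828).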

How the data were processed

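The deposited files hold unnormalised read counts for each gene symbol, with 1 file for every kidney. Per the submitters' processing notes the authors used cutadapt, TopHat2 2.0.9, Bowtie2, SAMtools 0.1.19 and HTSeq with mm10, and the library kit was SMARTer Ultra Low. Strand and the treatment of shared reads are not given in the sources used here. Groups came from the labels.

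Counts were fitted in edgeR 4.0.16 (R 4.3.3) with 4 groups, TMM normalization, filterByExpr (minimum count 10, minimum total 15) and quasi-likelihood F tests, adjusted by Benjamini and Hochberg's method. The SE is the log2 value divided by the square root of F. CPM values are TMM-normalised. Positions are from GENCODE M21 (GRCm38), which matched 98.2% of symbols. The script was checked on simulated counts.

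Litter numbers mark littermates within a model. The mean correlation of deviations from group means between mutant and WT was -0.0386 within and 0.0483 between litters for LIN28OE, and -0.00116 and 0.0016 for let7KO. The litter block was an alternative, as were RLE and upper-quartile normalization, other filters, covariates from Y-linked genes and from transcript length, DESeq2 1.42.0, limma-voom (limma 3.58.1), each model alone, a size threshold and leaving out each kidney.

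The members and lists were chosen with earlier results of these data known. Named genes were a fixed set, genes passing the test, and for each list the 2 largest differences with a mean of at least 1 CPM. Some of these genes are not reported here. The 20 genes of smallest p, the other list members at p below 0.01, Cyp2e1, Dusp4, Zfp429, Gpx3, Igf2bp1, the classes at p below 0.01 and 2 lists were added after values were seen. The labels give separate kidneys, some of them littermates, so p values cover the spread between these kidneys only. No column was left unused (0).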

Additional observations from a re-analysis of the deposited data

Results flagged for a closer look

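The difference for Gpr137b-ps, 3.09 on the log2 scale, was marked because the effects of the 2 models differed by the interaction test itself (edgeR's quasi-likelihood test, adjusted p = 0.00494).

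For the collagen and laminin list the mean log2 level of every LIN28OE kidney lay below every C57BL/6 WT kidney and that of every let7KO kidney above every mixed-strain WT kidney, with a median difference of -0.46 (54 genes). The summed level did not separate the let-7 groups, at 6455 to 8173 CPM in let7KO and 6979 to 8749 CPM in mixed-strain WT. The separation of mean log2 levels was looked for in all 34 lists and was found in this list alone. The difference for the list as a whole was not tested.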

How the results depend on the processing

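The count of genes with an adjusted p below 0.05 for the difference was 3 with no filter, with the strict filter and with the Y-linked covariate, 7 with the transcript length covariate, 101 with DESeq2, 2 with limma-voom and 0 with litter as a replicate block (207 at p below 0.01), and 1 to 6 when single kidneys were left out. The count at an unadjusted p below 0.01 was 413 with the length covariate, 413 with DESeq2 and 401 with limma-voom, and 165 to 461 with single kidneys left out, the lowest without C57BL/6 WT kidney 2 and the highest without let7KO kidney 1. Without let7KO kidney 1, 51.4% of these differences were below 0, against 66.9% of the 257. The LIN28OE count of 236 (LIN28B effect in the fit of 12 kidneys) became 552, 843 and 1700 with the length covariate, DESeq2 and limma-voom, and 63 to 426 with single kidneys left out. The let7KO count of 5 became 8 with the Y-linked covariate, 338 with DESeq2, 110 with limma-voom, and 5 to 189 with single kidneys left out, the highest again without let7KO kidney 1. The control count of 104 became 52 with the litter block, 265, 397 and 821 with the length covariate, DESeq2 and limma-voom, and 31 to 137 with single kidneys left out. The causes were not tested. Of 32 named genes, 27 kept the sign of their difference in every alternative. The Eya1 difference was -0.27 with limma-voom. With single kidneys left out it ran from -0.70 to 0.81 for Eya1, from -0.0053 to 0.53 for Igf2, from -0.15 to 0.55 for H19, from -0.35 to 0.31 for Gdnf and from -1.38 to 6.21 for Lin28b. The litter block moved Gpr137b-ps past the threshold and changed no other call for the difference. Of 34 list medians, 21 kept their sign in every alternative. With 3 kidneys a group the median SE of a difference was 0.377 among genes of at least 1 CPM.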
